A study of Homo sapiens with 32 samples.

Results

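Peaks of N6-methyladenosine (m6A) that recur between libraries and lie outside annotated genes, far from every protein-coding one, were described in human renal cells with and without SETD2. The regions were made by merging overlapping peaks of 16 lists on the autosomes. A region was kept when it overlapped no gene of the RefSeq gene table, lay over 10 kb from every protein-coding gene body and was called in at least 2 lists. The rule left 2248 regions, called far regions here, out of 60342 autosomal regions called in at least 2 lists (3.73%) and 96019 merged regions in all (2.34%). They held 11430 of 457526 autosomal peaks and covered 1629 kb. A further 2141 regions met the position rule but were called in 1 list only. The regions were selected on the number of lists that call them, so this number is given as a description, with no test. The far regions nearest to the distance limit lay 10004, 10049 and 10067 bp from a protein-coding gene and were called in 10, 3 and 2 lists, and the regions just short of it lay 9983, 9967 and 9965 bp away and were called in 3, 2 and 5 lists.

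m6A is the most common internal modification of messenger RNA. It is placed by a writer complex with METTL3 at its catalytic core, mostly at adenosines within the sequence GGACT and its variants, is read by YTH domain proteins and can be removed by the demethylases ALKBH5 and FTO. It is best known from coding sequences and 3′ UTRs, but long noncoding RNAs, enhancer RNAs, repeat-derived transcripts and RNA that runs on past the end of a gene carry it as well. SETD2 is the methyltransferase that places the trimethyl mark of H3K36 in transcribed gene bodies. It is a tumour suppressor of clear cell renal cell carcinoma.

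The lists came from m6A immunoprecipitation and sequencing (MeRIP-seq) of 2 established cell lines, the clear cell renal cell carcinoma line 786-O and RPTEC, renal proximal tubule epithelial cells immortalized with hTERT. In each, 4 lines were assayed with 2 immunoprecipitated libraries a line. These were the unmodified line (WT), the CRISPR clones SETD2KO-1 and SETD2KO-2, in which SETD2 is knocked out, and SETD2KO-1R, a clonal line made from clone 1 by adding back tagged full-length SETD2. WT and SETD2KO-1R are together called SETD2-expressing. Each modified line is 1 clone, so the spread between its libraries is not a spread between clones, and nothing in the labels says whether the libraries of a line came from separate cultures. The cell lines grew in different media and their lists carry different experiment names, so cell line and experiment cannot be told apart. The list headers give the same cell line, WT and replicate number as the sample titles, but name the knockout and add-back clones by internal codes that the labels do not explain, so which list belongs to which clone rests on the deposited record alone.

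The 16 lists held 474004 peaks, from 19249 to 39670 a library. No read counts came with them, so the depth behind a peak is unknown, and a region without a peak is one that was not called, not one shown to lack m6A. The renal genes PAX8, PAX2 and LHX1 held a peak in all 8 libraries of both cell lines, while CDH16 did in 2 of 786-O and 1 of RPTEC. Of the clear cell carcinoma genes, VEGFA, EPAS1 and CCND1 held peaks in all 8 libraries of each, CA9 in none, and NDUFA4L2, listed in the gene table as COXFA4L2, in 1 of 786-O and 0 of RPTEC. Of the genes of other cell types, PTPRC, CD3E, PECAM1, VWF and DCN held no peak, and LUM held one in 1 of 786-O and 5 of RPTEC.

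The letters under a far region were at hand only where it met a promoter window of the RefSeq table (GRCh38.p14), which runs from 250 bases before to 50 bases after a gene's start. That was so for 5 of the 2248 far regions, beside HCG27, LOC105371822, LOC105377614, LINC02043 and MIR663AHG, since a region may enter the bases ahead of a gene without touching the gene. The 3 of them called in most lists are shown as examples of the letters under far regions, which could not be read elsewhere. The overlaps lie at chr6:31197510-31197661 (152 bases, HCG27), chr17:50256363-50256600 (238 bases, LOC105371822) and chr4:189364090-189364256 (167 bases, LOC105377614), all on the plus strand, printed 5′ to 3′ with GGACT or its reverse complement AGTCC in capitals.
HCG27: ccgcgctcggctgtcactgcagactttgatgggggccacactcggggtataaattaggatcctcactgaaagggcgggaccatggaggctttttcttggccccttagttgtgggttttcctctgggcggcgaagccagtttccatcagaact
LOC105371822: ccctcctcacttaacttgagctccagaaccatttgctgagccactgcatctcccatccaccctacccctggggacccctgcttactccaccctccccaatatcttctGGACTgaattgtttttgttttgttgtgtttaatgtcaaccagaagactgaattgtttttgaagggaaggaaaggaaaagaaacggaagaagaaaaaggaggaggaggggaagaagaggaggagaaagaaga
LOC105377614: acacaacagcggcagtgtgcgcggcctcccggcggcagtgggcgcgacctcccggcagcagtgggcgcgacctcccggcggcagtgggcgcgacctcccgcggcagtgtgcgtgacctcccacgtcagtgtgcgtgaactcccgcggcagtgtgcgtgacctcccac

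GGACT was found 1 time among these 3 overlaps, on the gene's strand ahead of LOC105371822, and AGTCC in none. Either form was in 14881 of the 33725 autosomal windows (44.1%), all longer than the overlaps shown. HCG27, a noncoding gene of the HLA region, had its region called in 7 libraries of 786-O and 5 of RPTEC. The region ahead of LOC105371822 was called in 4 libraries of each. That ahead of LOC105377614 was called in 4 RPTEC libraries, 3 of them SETD2KO, and in no 786-O library, and it closes a run of 19 far regions that is described below.

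The median far region was called in 3 lists, against 5 for the 51750 regions that overlap a protein-coding gene and 4 for the 2023 gene-free regions within 10 kb of one. Of the far regions, 51.8% were called in 2 or 3 lists, against 36.4% of the regions in protein-coding genes. The gene-free regions within 10 kb were close to the far regions, at 49.8%. All 16 lists called 33 far regions (1.47%), 23 gene-free regions within 10 kb (1.14%) and 3887 regions in protein-coding genes (7.51%). Of the 33 far regions, 8 lie on chromosome 9 between 40 and 68 Mb. Regions tied in the number of lists were ordered by the mean score percentile over all their peaks, where a percentile is the place of a peak's score within its own list, with 100 for the highest score. The 10 highest of the 33 by this mean lie on chromosome 9 (7), chromosome 8 (2) and chromosome 16 (1). The first, chr9:65268821-65269634, lies 12.5 kb from the forkhead gene FOXD4L5 and had a mean of 94.2. The percentile of its highest peak, the value given for single libraries here, was between 87.9 and 98.7. The second, chr9:64761608-64762793, had a mean of 89.7 over all its peaks, and its highest peak was between 87.1 and 99.1.

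**Figure D1:**
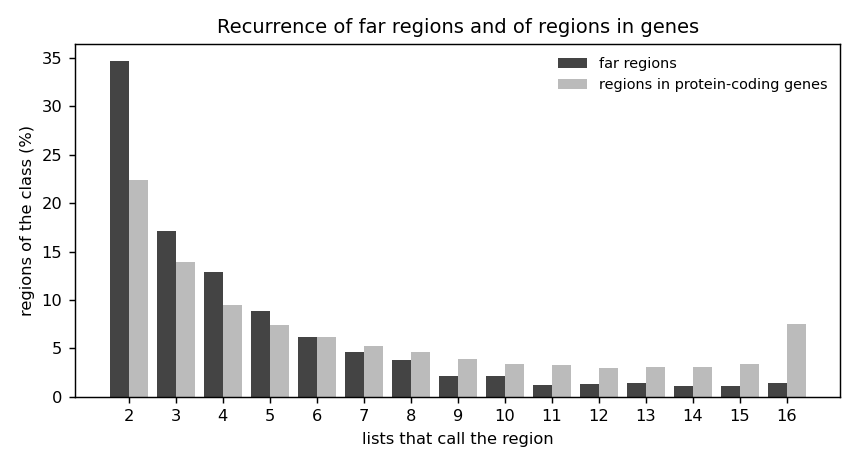
Percentage of regions (y axis) called in 2 to 16 lists (x axis), for the 2248 far regions (dark bars) and the 51750 regions in protein-coding genes (light bars). The far regions have 34.7% of their number at 2 lists and 1.47% at 16 lists, against 22.4% and 7.51% in genes.

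The median width of far regions was 575 bp with quartiles of 434 and 810 bp, against 558 bp in protein-coding genes, and 130 of them were over 1500 bp wide (5.78% against 5.22%). Width went with recurrence, as a merged region can only widen with further lists, from a median of 473 bp at 2 or 3 lists to 1278 bp at 13 to 16. The widest, chr10:42298467-42321848, spans 23382 bp between the pseudogenes PABPC1P8 and LOC441666 and was called in all 8 libraries of 786-O and the 4 SETD2KO libraries of RPTEC. The next, chr9:63395512-63401641 (6130 bp), was called in all 8 libraries of 786-O and none of RPTEC, and chr2:97430543-97435473 (4931 bp), between APPAT and ANKRD36B, in all 16.

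Peaks in far regions ranked low in their lists. In 786-O the median percentile of peaks in far regions was between 36.1 and 46.1 in the 8 libraries, and that of peaks in protein-coding genes between 54.1 and 55.5. In RPTEC the ranges were 36.9 to 44.2 and 51.9 to 55.2. The difference was -15.4 percentile points in 786-O and -13.9 in RPTEC, lower in 8 of 8 libraries of each (two-sided exact sign-flip permutation test, p = 0.00781 each, the smallest that 8 libraries allow, adjusted p = 0.0317 over 10 tests). Both sets passed the same recurrence threshold, but far regions were called in fewer lists. Only 2.16% to 6.04% of a library's peaks in far regions lay in the top 10% of its list. Among regions called in 13 to 16 lists the median percentile was 51.6 in far regions and 63.8 in protein-coding genes, while at 2 or 3 lists the values were 28.5 and 29.9.

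When regions called in the same number of lists were compared the difference was -5.27 points in 786-O and -4.98 in RPTEC (exact sign-flip permutation test, p = 0.0234 and p = 0.0234).

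The share of a library's peaks that lay in far regions was higher in the SETD2KO libraries of both cell lines. In 786-O it was 1.75% and 1.93% in WT and 2.44% and 2.40% in SETD2KO-1R, against 3.19% and 3.29% in SETD2KO-1 and 2.77% and 3.94% in SETD2KO-2. The groups did not overlap, and the means were 3.30% ± 0.482 (SD, n = 4) in SETD2KO and 2.13% ± 0.344 (SD, n = 4) in SETD2-expressing libraries. In RPTEC it was 1.56% and 1.62% in WT and 1.74% and 1.69% in SETD2KO-1R, against 3.36% and 2.45% in SETD2KO-1 and 2.76% and 3.19% in SETD2KO-2. Here too the groups did not overlap, with means of 2.94% ± 0.410 (SD, n = 4) and 1.65% ± 0.0812 (SD, n = 4). The differences of 1.17 and 1.29 percentage points each had p = 0.0286 by the two-sided exact permutation test, the smallest that 4 libraries against 4 allow (adjusted p = 0.0357). The 786-O difference was 0.837 points with p = 0.0571 (exact permutation test) when every list was cut to the same number of peaks, 1.05 and 1.11 points with p = 0.0571 without WT replicate 1 and without WT replicate 2, and in both cell lines the p was 0.0556 with the replicate number as a block. The rule used calls of these same libraries, so the share was also taken without it and with regions chosen elsewhere, both alternatives chosen after seeing the data and not adjusted. Over far regions called in at least 1 list the differences were 1.44 and 1.70 points (exact permutation test, p = 0.0286 each). Over regions chosen by at least 2 lists of the other cell line, they were 0.409 points in 786-O, with groups that overlap (p = 0.0571, exact permutation test), and 0.642 in RPTEC (p = 0.0286). At 4 lists or more the differences were 0.696 and 0.790 points, and in the upper 50% of scores the RPTEC one was 0.765 (exact permutation test, p = 0.0286 each). With lines in place of libraries as units there are only 3 groupings and no p under 0.333 can be reached.

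**Figure D2:**
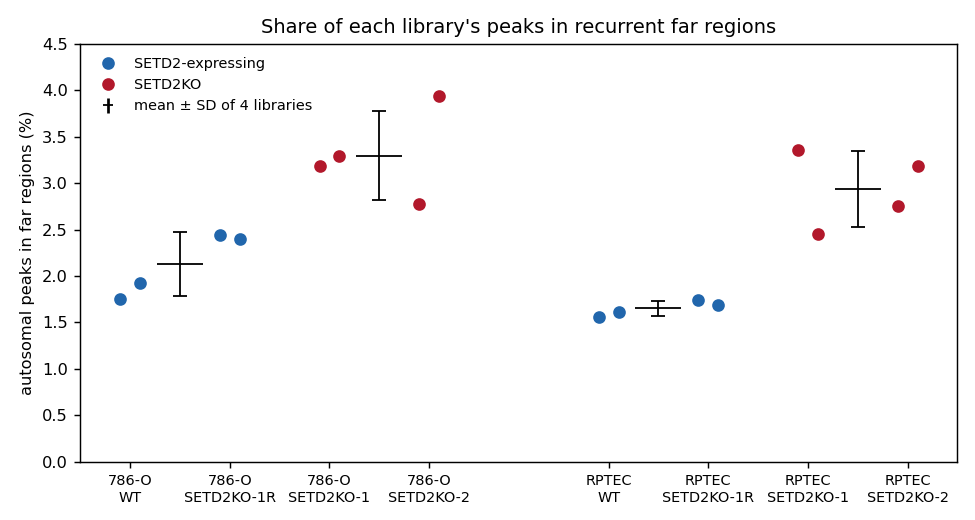
Percentage of each library's autosomal peaks that lie in far regions (y axis) for the 2 libraries of each line (x axis), with SETD2-expressing lines in blue, SETD2KO lines in red, and black bars for the mean ± SD of 4 libraries. The SETD2KO libraries run from 2.77% to 3.94% in 786-O and 2.45% to 3.36% in RPTEC, above the highest SETD2-expressing values of 2.44% and 1.74%.

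The SETD2KO effect on this share did not pass a test for a difference between the cell lines (-0.123 points, 786-O minus RPTEC, permutation test within cell lines, p = 0.868, chosen after seeing the data). Nor did the share itself, with means of 2.71% ± 0.734 in 786-O and 2.30% ± 0.741 in RPTEC (SD, n = 8 libraries each, exact permutation test, p = 0.270, adjusted p = 0.300). That difference of 0.418 points was 0.201 without 786-O SETD2KO-2 replicate 2, 0.618 without RPTEC SETD2KO-1 replicate 1 and 0.118 with equal numbers of peaks. The higher share in SETD2KO was found among the 1477 far regions that lie in clusters, at 2.37% against 1.52% in 786-O and 2.16% against 1.25% in RPTEC, and among the 771 others, at 0.922% against 0.610% and 0.776% against 0.401%. Outside clusters the differences of 0.312 and 0.375 points each had p = 0.0286 (exact permutation test, an alternative chosen after seeing the data, with no adjustment). Cluster status rests on the same calls, and the share outside clusters was not taken over regions chosen by the other cell line.

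Other regions outside protein-coding genes also had higher mean shares in SETD2KO, which were not tested. For regions that overlap another gene only, such as a noncoding RNA gene or a pseudogene, the mean share was 6.63% in SETD2KO and 5.88% in SETD2-expressing libraries of 786-O, with overlapping ranges. In RPTEC it was 5.96% and 5.07%, with ranges of 5.36% to 6.49% and 4.84% to 5.19% that do not overlap. For gene-free regions within 10 kb of a protein-coding gene the means were 2.70% and 2.35% in 786-O, with overlapping ranges, and 2.15% and 1.77% in RPTEC, with ranges of 1.95% to 2.44% and 1.64% to 1.87%. The higher share in SETD2KO was thus not particular to far regions.

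By distance from genes, the ratio of SETD2KO to SETD2-expressing shares was lowest next to genes. For gene-free regions within 1 kb of a protein-coding gene the mean share in SETD2KO was 1.08 times that in SETD2-expressing libraries in 786-O and 0.992 times in RPTEC. From 1 to 10 kb the ratios were 1.18 and 1.31. From 10 to 20 kb they were 1.34 and 1.61, from 20 to 50 kb 1.36 and 1.53, and from 50 to 100 kb 1.29 and 1.46. From 100 to 200 kb they were 1.90 and 2.40, from 200 to 500 kb 2.11 and 2.35, and beyond 500 kb 1.88 and 2.05. The ratios did not climb steadily, but in both cell lines those over 100 kb were above all nearer ones. In RPTEC all 6 distance bins over 10 kb had every SETD2KO library above every SETD2-expressing one, and in 786-O 4 of 6 did, against 1 and 0 of the 2 bins within 10 kb. The log2 ratio of the share in far regions to the share in gene-free regions within 10 kb was higher in SETD2KO by 0.43 in 786-O and 0.54 in RPTEC (exact permutation test, p = 0.0286 each, adjusted p = 0.0357, chosen after seeing the data). Both classes passed the 2-list rule on these same libraries. Unlike the share itself, the ratio was not taken without the rule or over regions chosen by the other cell line.

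**Figure D3:**
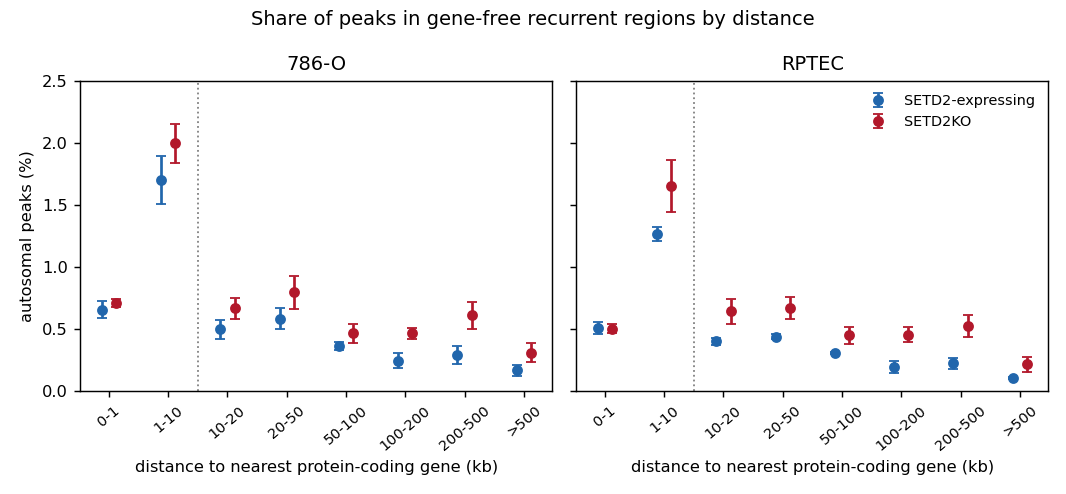
Percentage of autosomal peaks (y axis) in gene-free recurrent regions by distance to the nearest protein-coding gene in kb (x axis, bins of unequal width), as mean ± SD of 4 SETD2-expressing (blue) and 4 SETD2KO (red) libraries in each cell line, with the dotted line at 10 kb. Left of the line the ratio of means is between 0.992 and 1.31, and right of it between 1.29 and 2.40.

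The far regions had a median distance of 61.1 kb to the nearest protein-coding gene, with 895 (39.8%) over 100 kb and 214 over 500 kb away. Of the 1697 whose nearest gene has a known strand, 51.8% lay downstream of it, against 69.2% of the 1574 such regions within 10 kb. The downstream share was 59.9% from 10 to 20 kb, 26.6% beyond 500 kb, and between 49.8% and 57.0% in the bins between, with no steady fall. Since the peaks carry no strand, the position says nothing of which strand was transcribed. The nearest gene of any kind was a long noncoding RNA for 1045 far regions (46.5%) and a protein-coding gene for 366 (16.3%). It was a pseudogene for 551 (24.5%) and, under a separate label, a transcribed pseudogene for a further 165 (7.34%). In all, 1319 (58.7%) lay over 10 kb from every gene. The farthest 3 lie on chromosome 22, with the olfactory receptor gene OR11H1 as nearest protein-coding gene, the first at chr22:10640063-10640364 and 4888 kb away, and were called in 2, 2 and 4 lists, all of 786-O.

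Far regions were spread unevenly over the chromosomes. They made up 9.81% of the regions called in at least 2 lists on chromosome 21, 6.76% on chromosome 2, 6.63% on chromosome 8 and 5.90% on chromosome 9, and only 1.07% on the gene-dense chromosome 19 and 1.42% on chromosome 17. Of the 189 on chromosome 9, 96 lay between 40 and 68 Mb, an interval of long duplicated blocks, and 8 of these were called in all 16 lists. How reads with several equal matches were placed is not given in the sources used here, so a peak there may belong to another copy. The mean share was higher in SETD2KO on 18 of 22 autosomes in 786-O, all but 7, 10, 18 and 20, and on 20 of 22 in RPTEC, all but 11 and 19. Without chromosomes 8 and 9 the SETD2KO differences were 1.05 and 1.13 points (exact permutation test, p = 0.0286 each, an alternative chosen after seeing the data, with no adjustment).

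When far regions no more than 50 kb apart were chained, 1477 of them (65.7%) fell into 258 clusters of at least 3, 324 into pairs, and 447 stood alone. A cluster had a median of 4 regions over 29.4 kb, the longest span was 295.9 kb, and 36 clusters held at least 10. Of 2226 neighbouring pairs 45.0% were within 10 kb of each other. A cluster's mean number of calls was higher in SETD2KO than in SETD2-expressing libraries for 168 clusters and lower for 43 in 786-O, and higher for 145 and lower for 61 in RPTEC. Calls in all 4 SETD2KO libraries and in no SETD2-expressing one were found for 23 clusters in 786-O and 19 in RPTEC, 7 of them the same, and the reverse for 1 cluster in each. These counts describe the clusters and were not tested, since regions of a cluster are not independent. Clusters of other regions were not counted as a background. SETD2KO libraries also called more far regions in all, with means of 979.5 against 571 in 786-O and 633 against 398.5 in RPTEC.

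The cluster with most members, 26 over 295.9 kb at chr2:17126134-17422055, lies between CYRIA, which encodes a RAC1-binding protein, and RAD51AP2. In 786-O it was called at 19 and 17 of its regions in SETD2KO-1 and 23 and 15 in SETD2KO-2, and at none in either library of WT or SETD2KO-1R. In RPTEC the calls were 12 and 16 in SETD2KO-1, 12 and 8 in SETD2KO-2, 12 and 7 in SETD2KO-1R, and 1 and 0 in WT. SETD2KO-1R thus had calls in both libraries in RPTEC and in neither in 786-O. Together with 2 further clusters, the interval between these genes held 47 far regions over 609 kb. Its calls ran from 21 to 30 in the SETD2KO libraries of 786-O against 0 in all 4 SETD2-expressing ones, and from 17 to 35 in those of RPTEC against 0 to 14.

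**Figure D4:**
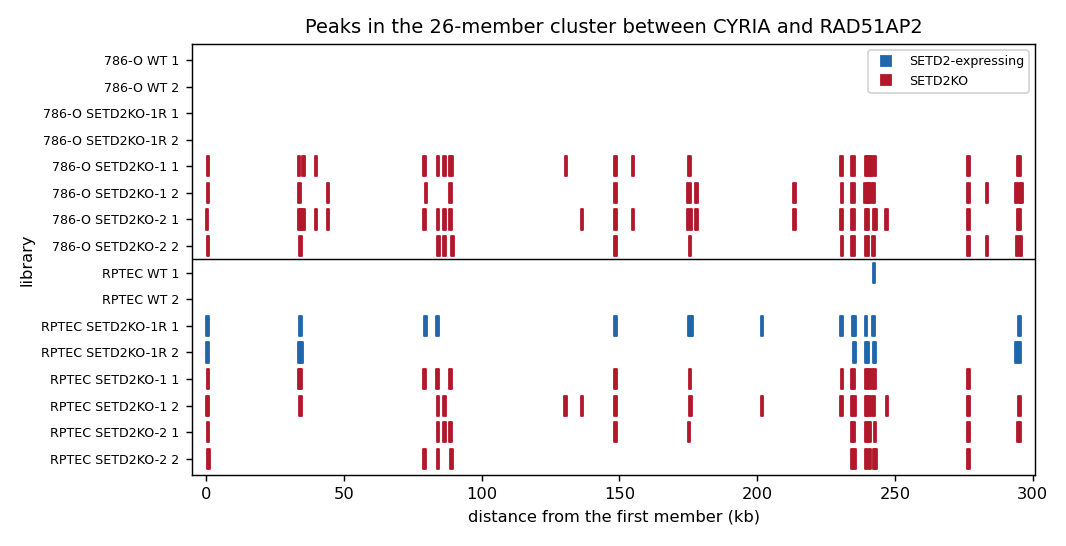
Peaks of the 16 libraries (y axis) in the 26 regions of the cluster between CYRIA and RAD51AP2, by distance in kb from its first base (x axis), with SETD2-expressing libraries in blue, SETD2KO libraries in red, and peaks under 0.9 kb drawn 0.9 kb wide. The 786-O SETD2-expressing rows are empty, and the RPTEC SETD2KO-1R rows hold peaks in 12 and 7 of the regions.

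A similar run of 4 clusters lay between MMP16, a membrane-bound metalloproteinase gene, and RIPK2, which encodes a kinase of NOD signalling, on chromosome 8. Its 46 far regions over 694 kb were called 26 to 30 times in the SETD2KO libraries of 786-O against 6 to 8 in the SETD2-expressing ones, and 18 to 22 times against 5 to 7 in RPTEC. The cluster nearest RIPK2, with 20 regions, was called in all 16 libraries, while the other 3 clusters, with 12, 7 and 7 regions, were called in all SETD2KO libraries and in no SETD2-expressing library of either cell line. Between POTEH and CCT8L2 on chromosome 22, 20 far regions in 2 clusters were called 8 to 14 times in 786-O SETD2KO, 4 to 17 times in RPTEC SETD2KO and 0 times in all 8 SETD2-expressing libraries. Between DCBLD2, a neuropilin-like receptor gene, and the collagen gene COL8A1, the 20 regions beside LINC00973 were called 6 to 13 times in 786-O SETD2KO and 2 to 12 times in RPTEC SETD2KO, against 3 and 0 in 786-O SETD2KO-1R and 0 in the other SETD2-expressing libraries. The 19 regions between FAM98A and CRIM1 on chromosome 2 were called 7 to 17 times in SETD2KO and 2 to 4 times in SETD2-expressing libraries of 786-O, and 4 to 9 against 0 to 3 times in RPTEC. Far regions with no call in any SETD2-expressing library met the 2-list rule through SETD2KO libraries alone. Splits of this kind are thus partly set by the rule, and they were not tested.

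The next large clusters had calls that overlapped between SETD2KO and SETD2-expressing libraries. The 23 regions between FASLG, the Fas ligand gene, and TNFSF18, the GITR ligand gene, were called in every library, from 6 to 18 times. In 786-O the ranges were 12 to 15 in SETD2KO and 6 to 13 in SETD2-expressing libraries. They overlapped through SETD2KO-1R (13 and 10), while WT had 6 and 7. In RPTEC the ranges were 12 to 18 and 8 to 15. The 23 regions on chromosome 21 around RNA45SN3 and RNA45SN1, which encode the ribosomal RNA precursor, were called 7 to 20 times in 786-O and 3 to 7 times in RPTEC. Ribosomal RNA is abundant in total RNA, and the part of its reads in these calls was not tested. The 14 regions between MYEOV and CCND1, the cyclin D1 gene, were called 4 to 8 times in 786-O and 0 to 2 times in RPTEC.

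Clusters of 1 cell line were common as well, with 42 called in no RPTEC library, 25 in no 786-O library and 37 in every library. The 19 regions between TRIML1 and FRG1 near the end of chromosome 4, which end at the LOC105377614 sequence shown above, were called 5 to 14 times in each RPTEC library and never in 786-O. Their neighbouring regions chr4:189235000-189235977 and chr4:189233914-189234879 were called in all 8 RPTEC libraries. The highest peak of the former had percentiles of 80.6 to 95.8. That of the latter had 44.3 in WT replicate 1 and 99.7 to 99.98 in the other 7 libraries. The 13 regions ahead of RIMS1, a gene of the presynaptic active zone, were called 5, 6, 11 and 12 times in WT and SETD2KO-1R of RPTEC and 0 or 1 times in its SETD2KO libraries, the opposite order to the clusters above.

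**Figure D5:**
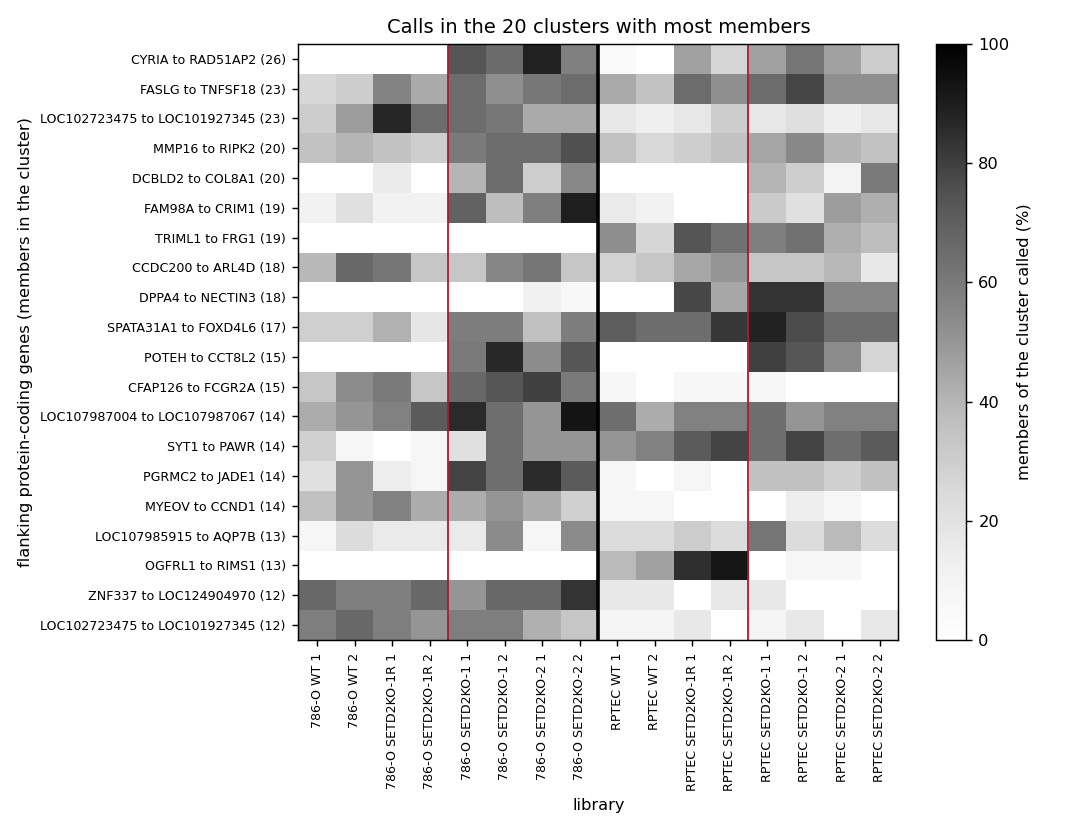
Percentage of a cluster's far regions called (grey scale, 0 to 100%) in each library (x axis) for the 20 clusters with most members (y axis, flanking protein-coding genes and number of members), with red lines between SETD2-expressing (left) and SETD2KO (right) lines and a black line between 786-O and RPTEC. The top cluster is blank in 786-O WT and SETD2KO-1R, and the TRIML1 to FRG1 cluster is blank in all 786-O libraries.

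Single far regions were also sorted by the libraries that called them. In 786-O, 90 far regions (4.0%) were called by all 4 SETD2KO libraries and no other 786-O library, against a background of 0.59% of all 60342 regions, and 4 (0.178%) by all 4 SETD2-expressing libraries alone, against 0.192%. In RPTEC the counts were 31 (1.38%, background 0.278%) and 5 (0.222%, background 0.23%). The far regions thus stood above the background in the SETD2KO direction, while the counts of 4 and 5 in the other are too few to read and ran up to 11 in 786-O, without WT replicate 1, and 10 in RPTEC, without WT replicate 2. Of the 90 in 786-O, 72 (80%) lay in clusters, against 65.7% of all far regions. Chromosome 2 held 21 of them and chromosome 8 held 12, where 12.8% and 7.21% of all far regions lie. Of the 90, 50 (55.6%) were also called in at least 1 RPTEC SETD2KO library and 22 (24.4%) in at least 1 RPTEC SETD2-expressing library. Of all 356 regions with this pattern in 786-O, 50.3% and 36.8% were. Leaving out a library lets 3 calls stand for 4, and the RPTEC count of 31 became 61 without SETD2KO-1 replicate 2, 49 without SETD2KO-2 replicate 1 and 56 without SETD2KO-2 replicate 2.

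Both cell lines called 5 far regions in all their SETD2KO libraries and in no other (0.222%, background 0.0133%, which is 8 of all 60342 regions), and these were picked out after their values were seen. The first by mean percentile, chr8:89239544-89239947, lies 3.38 kb from the pseudogene RPSAP74 in the interval between MMP16 and RIPK2, and its percentile ran from 78.4 to 93.1 over the 8 SETD2KO libraries. The second, chr22:16166516-16168988 between POTEH and CCT8L2, is 2473 bp wide and had percentiles of 72.4, 76.2, 77.5 and 75.3 in 786-O and 84.3, 74.2, 67.3 and 44.2 in RPTEC. The others are chr2:181091103-181092433, which lies 27.7 kb from the ubiquitin-conjugating enzyme gene UBE2E3, chr8:89348641-89350070, and chr2:17402309-17402820 of the cluster with 26 members. Their ranks were mixed, with the last between 5.11 and 66.0.

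Among regions called by SETD2 status in 1 cell line, chr1:161459330-161460284 lies among glycine and glutamate tRNA genes and had percentiles of 67.6 to 95.3 in the SETD2KO libraries of 786-O. The region chr2:226511992-226513132, 218 kb from the insulin receptor substrate gene IRS1, had 62.4 to 90.3 there. In RPTEC, chr3:30022465-30022985, 12.1 kb from the RNA-binding protein gene RBMS3, had 50.3 to 87.8 in SETD2KO, and chr18:14254778-14255497, 122 kb from ZNF519, was called in all 4 SETD2KO libraries there but in 3 SETD2-expressing libraries of 786-O too. In the other direction the 786-O regions chr7:46159863-46160431, chr15:30775628-30776393 and chr5:1558122-1558585 had mean percentiles of 36.9, 36.6 and 36.4 over their peaks. The RPTEC regions chr21:8815948-8816223, chr19:20826515-20828042 beside ZNF66 and chr2:97275437-97276013 beside ANKRD36 were called in 0, 8 and 6 libraries of 786-O. In the 4 RPTEC libraries the highest peaks of these 3 regions had percentiles of 43.2 to 78.8, 24.8 to 54.0 and 17.7 to 70.6.

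The add-back line shares its parent clone with the knockout, so the calls gained in SETD2KO-1 were followed into it. In 786-O, 285 far regions (12.7%, background 4.66%) had a peak in both libraries of SETD2KO-1 and in none of WT, and 55 (2.45%, background 3.72%) the other way round. In RPTEC the counts were 213 (9.48%, background 3.89%) and 49 (2.18%, background 3.04%). Of the gained ones, 68.4% in 786-O and 68.1% in RPTEC were called in neither SETD2KO-1R library, against 54.0% and 44.2% of all regions gained in this way. In the second knockout clone 19.6% and 39.9% of them were called in neither library, against 25.3% and 43.7%. Both SETD2KO-1R libraries called 33 of the 285 and 24 of the 213. These shares were not tested, as they rest on 2 libraries of 1 clone.

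Libraries of the same line called more of the same far regions than libraries of different lines. The number of far regions called by both libraries over the number called by either was 0.424 ± 0.0283 within lines (SD, n = 4 pairs) and 0.319 ± 0.0735 between lines (SD, n = 24 pairs) in 786-O, and 0.422 ± 0.0354 and 0.293 ± 0.0502 in RPTEC. The differences of 0.105 and 0.130 had one-sided p = 0.0286 and p = 0.00952 by an exact permutation test over all ways to pair 8 libraries (adjusted p = 0.0357 and 0.0317). Over regions chosen by the lists of the other cell line, an alternative chosen after seeing the data, they were 0.0988 and 0.0978 (p = 0.0190 each, exact permutation, not adjusted). In 786-O libraries of the 2 knockout clones shared 0.461 of their calls, no less than the 0.460 of the SETD2KO-1 pair, while WT shared 0.280 with SETD2KO-1 and 0.325 with SETD2KO-1R. In RPTEC the knockout clones shared 0.354, and WT shared 0.245 with SETD2KO-1 and 0.343 with SETD2KO-1R.

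By cell line, both cell lines called 1001 of them (44.5%, against 71.0% of all regions in at least 2 lists), 786-O alone called 848 (37.7% against 18.9%) and RPTEC alone 399 (17.7% against 10.1%). At least 4 libraries of 786-O and none of RPTEC called 260 far regions (11.6%, background 4.76%), and the reverse held for 96 (4.27%, background 2.36%). The backgrounds were not matched for the number of lists, which was lower in far regions. Libraries of 786-O also held more autosomal peaks, with means of 31680 against 25511 in RPTEC. The 786-O regions called in all its 8 libraries with the highest mean percentiles over their peaks were chr12:132379540-132380366, 44.1 kb from LOC105370092, with percentiles of 78.6 to 96.8, chr9:65209618-65210776 with 86.6 to 99.5, and the 6130 bp region on chromosome 9. In RPTEC they were the pair of chromosome 4 regions given above and chr9:6102845-6104723, which lies 87.2 kb from RANBP6 and had percentiles of 23.9 to 95.8.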

How the data were processed

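m6A immunoprecipitated (IP) and input RNA was sequenced in 32 samples, of which the 16 IP libraries have a peak list and are used here. The authors fragmented RNA with an E. coli spike-in, aligned reads with STAR to hg38 and called peaks against input with MACS2, 1 list per library with replicates not pooled. Their differential test on HTSeq counts was not repeated. The deposited peak score is a whole number of unstated scale, so it is used only as a rank within a list, 100 being the highest. Summit offsets were not used, and further score columns hold 0 throughout. Lists carry no reads, so depth is unknown and no counting interval is given.

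Autosomal peaks sharing at least 1 bp were merged over the 16 lists, and distances were measured to gene bodies of the RefSeq table (GRCh38.p14, 56756 autosomal genes, 19126 protein-coding), with Python 3.11.15, NumPy 2.4.6, pandas 2.3.3 and Matplotlib 3.10.9. Far regions at most 50 kb apart were chained, and at least 3 made a cluster. The steps were tested on simulated data. A marker gene is not reported here. The share of peaks was compared by exact permutation over libraries, score rank by sign flips, and agreement over pairings of libraries, with Benjamini-Hochberg adjustment over 10 tests, 7 planned and 3 chosen after seeing the data. The members, lists and tests were chosen with earlier results of these data known. Named are the 10 far regions in most lists, ties by mean percentile (the first 2 in full), the 6 clusters with most members and those they lie beside, up to 3 regions per cell line and direction called by SETD2 status alone and 3 per cell line called in no library of the other, by mean percentile over all peaks of a region, the 3 farthest, the 3 widest, and the regions that meet a promoter window. Other clusters and intervals, and the 5 regions of both cell lines, were chosen after their values were seen. Alternatives changed the peak filter, merging, list number, distance, chaining and unit, and left out each library in turn.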

Additional observations from a re-analysis of the deposited data

Results flagged for a closer look

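Chromosome X was left out of the comparisons, and 122 of its 1893 regions called in at least 2 lists (6.44%) would meet the rule for far regions apart from the chromosome. No group of 4 or 8 libraries had a value far from the rest in the share of peaks, the number of far regions called, their median percentile or their median peak length, over 24 groups checked, where chance marks about 1 group in 20.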

How the results depend on the processing

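No direction turned under the alternatives run, but sizes moved. The share of peaks in far regions lost its call in 786-O when lists were cut to equal numbers of peaks (0.837 points, exact permutation p = 0.0571), and in both cell lines with the replicate number as a block (1.17 points in 786-O and 1.29 in RPTEC, p = 0.0556 each, the smallest that 36 arrangements allow). It also lost its call in 786-O over regions chosen by the lists of the other cell line only (0.409 points, p = 0.0571, exact permutation, chosen after seeing the data), where RPTEC kept it at 0.642 points. At 4 lists or more the differences were 0.696 and 0.790 points, and in the upper 50% by score 0.797 and 0.765. Over 50 kb from protein-coding genes they were 0.785 and 0.813 points, and over 10 kb from every gene 0.808 and 0.886. Same-numbered libraries of different lines had correlations of -0.0444 to 0.0616 in 786-O and -0.0510 to 0.0692 in RPTEC. Low correlations do not settle whether the numbers pair libraries. The share of peaks in protein-coding genes was higher in replicate 1 than in replicate 2 of every 786-O line (83.2% and 80.6% in WT). In RPTEC it was so in every line but SETD2KO-1 (80.6% and 84.3%). Leaving out each library in turn, the 786-O difference ran from 0.858 to 1.30 points and passed except without WT replicate 1 or WT replicate 2 (p = 0.0571, exact permutation), and the RPTEC difference ran from 1.05 to 1.37 points.

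Counts fell with stricter rules, which keep fewer peaks or regions. Far regions numbered 803 and clusters 84 when only the upper 50% of scores in a list were kept, 1225 and 132 with the same number of peaks, 1083 and 119 at 4 lists or more, 1232 and 138 over 50 kb from protein-coding genes, and 1319 and 148 over 10 kb from every gene. Calls in SETD2KO alone were 22 in 786-O and 12 in RPTEC in the upper 50%, 24 in 786-O with the same number of peaks, 20 in RPTEC over 50 kb, 52 and 20 over 10 kb from every gene, and 18 and 7 outside clusters (chosen after seeing the data). Calls in SETD2-expressing libraries alone were 1 and 2 in the upper 50%, 2 and 2 with the same number of peaks, over 50 kb and over 10 kb from every gene, and 2 in RPTEC outside clusters. Far regions of 1 cell line were 87 in 786-O and 42 in RPTEC in the upper 50%, 96 in 786-O with the same number of peaks, 149 in 786-O over 50 kb, and 141 and 60 over 10 kb from every gene.

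With 1 library left out, calls in SETD2KO alone ran from 90 to 128 in 786-O and 31 to 61 in RPTEC (61 without SETD2KO-1 replicate 2, 49 without SETD2KO-2 replicate 1, 56 without SETD2KO-2 replicate 2). Calls in SETD2-expressing libraries alone ran from 4 to 11 in 786-O and 5 to 10 in RPTEC, since leaving out a library drops 1 required call or 1 required absence. They were 11 and 9 without 786-O WT replicates 1 and 2, 7 without SETD2KO-1 replicate 2, SETD2KO-2 replicate 2 or SETD2KO-1R replicate 1, and 8 without SETD2KO-1R replicate 2. In RPTEC they were 8 and 10 without WT replicates 1 and 2 and 8 without SETD2KO-2 replicate 1 or SETD2KO-1R replicate 1. In all, 324 values kept their side of the threshold or stayed within 1.5 times, 46 counts moved further and 6 tests no longer passed. Read depth cannot be set against any of these, as the lists hold no reads.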
